A study of Mus musculus with 10 samples.

Results

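The 37 genes described here are interferon response genes, chosen by symbol, of 31053 genes in the expression matrices of AT2-derived cells sorted from mouse lungs. All 37 passed the filter on low counts in each comparison, and they were read in 10 single-cell RNA-seq libraries as sums of UMIs (unique molecular identifiers, one per captured transcript) over cells with 0 UMIs of Ptprc, the gene for the pan-leukocyte antigen CD45. The genes fall into 25 type I-like members and 12 IFN-gamma-like members by textbook preference, although both kinds of interferon can induce most of them.

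The study followed alveolar type 2 (AT2) cells, the surfactant-producing epithelial cells of the distal lung, after a mutation was switched on in some of them. Sftpc-CreERT2; Red2Kras mice carry a tamoxifen-inducible Cre driven by the AT2 gene Sftpc, and in their lungs RFP+ cells are mutant whereas YFP+ cells are wildtype neighbours in the same tissue. Sftpc-CreERT2; R26R-Confetti mice carry the same Cre and colours without the mutation, so that both of their colours are wildtype. All mice received 3 doses of 0.2 mg tamoxifen per gram of body weight. The groups were Red2Kras RFP+ and YFP+ cells 4 days after induction, the same populations 2 weeks after induction, each with 2 libraries, and Confetti RFP+ and YFP+ cells, each with 1 library. The labels give no time for Confetti cells, and the methods place them at 2 weeks. As the methods describe it, every library came from pooled lungs sorted for EpCAM and for the colour, so a library is a pool of animals and not an animal, and the sort used no gate against leukocytes. Nothing ties a library to separate animals, so p-values measure the spread between these pools, and in such sums fewer responding cells and less RNA per cell cannot be told apart.

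Interferons are cytokines that put cells into an antiviral state. Type I interferons bind the IFNAR receptor and activate ISGF3, a complex that includes STAT2 and IRF9 and binds the interferon-stimulated response element (ISRE), whereas interferon gamma binds the IFNGR receptor and acts through the gamma-activated site (GAS) and through induction of IRF1. In the lung, epithelial cells are among the cells that respond to both during infection and injury. The type I-like members include restriction factors (Ifit1, Ifit2, Ifit3, Ifit3b, Ifitm3, Bst2, Mx1, Rsad2), sensors and antiviral enzymes (Ifih1, Zbp1, Oas1a, Oasl2), the ubiquitin-like modifier Isg15 with its protease Usp18, and the factors Irf7, Irf9 and Stat2. The IFN-gamma-like members include the factor Irf1, the guanylate-binding proteins Gbp2, Gbp3 and Gbp7, the immunity-related GTPases Iigp1, Igtp, Irgm1 and Irgm2, and the antigen-processing genes Psmb8, Psmb9 (immunoproteasome subunits) and Tap1 (a peptide transporter).

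Libraries held 1138 to 4306 Ptprc 0 cells and 7981651 to 69881952 UMIs in those cells, with 3251 to 15685 UMIs in the median cell, and the 2 weeks RFP+ libraries were the deepest. Levels are given as CPM, UMIs per 1000000 UMIs of the library after TMM scaling. The AT2 markers were high in every library, with Sftpc between 59077 and 171347 CPM. RNA of other cell types was also present: the summed level of 10 leukocyte genes without Ptprc ran from 12.4 to 1010 CPM and was highest in 2 weeks YFP replicate 2 (1010 CPM), 4 days RFP replicate 2 (692 CPM) and 4 days YFP replicate 2 (135 CPM). The summed level of 4 endothelial genes was highest in 4 days YFP replicate 1, at 158 CPM against 3.94 to 65.3 CPM elsewhere. The airway secretory genes Scgb1a1, the secretoglobin of club cells, and Scgb3a2 had the highest sum of these lists, from 319.5 CPM in 2 weeks RFP replicate 1 to 17233 CPM in 2 weeks YFP replicate 2, with 5589.6 and 9173 CPM in Confetti. Because of this RNA the results are also given under a strict gate, which drops every cell with a UMI of any of 10 leukocyte, endothelial, mesenchymal or ciliated-cell genes but uses neither airway secretory gene. Xist, the X-inactivation transcript, was at 105 to 718 CPM in both Confetti libraries and the replicate 1 libraries and at 0.240 to 0.433 CPM in the replicate 2 libraries, and the Y-linked gene Ddx3y was at 0 in both Confetti libraries only, so sex and replicate or genotype cannot be told apart. Up to 17 cell barcodes were shared by any 2 libraries, at most 0.350% of the smaller one.

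The promoters of many members hold letters that match the elements of both pathways, and 6 of them are shown because their genes are described with values from every library below. Of the 37 members, 30 have a window of 250 bases before to 50 bases after the start site in the RefSeq table (GRCm38.p6), in 35 windows. The letters GAAANNGAAA or TTTCNNTTTC, which cover the core of an ISRE on both strands, occur in 12 of 22 type I-like windows (54.5%) and 6 of 13 IFN-gamma-like windows (46.2%), against 3.44% of all 32851 windows. The letters TTCNNNGAA, the same on both strands and the core of a GAS, occur in 5 of 22 (22.7%) and 5 of 13 (38.5%) windows, against 8.30% of all. Both sets of letters occur in both classes. Gbp2, Gbp3, Gbp7, Igtp, Irgm1 and Irgm2 of the IFN-gamma-like class hold the ISRE letters. Ifit2, Ifitm3, Ifi35, Oas1a and Bst2 of the type I-like class hold the GAS letters. A match is a run of letters and not a shown binding site, and a window without one lacks only these letters. The 150 bases before the start site are printed 5′ to 3′ on the gene's strand, with ISRE and GAS matches in capitals. Isg15 (chr4:156200819-156200968, minus strand) holds 3 overlapping ISRE matches from -78, and Bst2 (chr8:71537473-71537622, minus strand) holds a GAS match that runs into 2 overlapping ISRE matches from -136. Oas1a (chr5:120907526-120907675, minus strand) holds a GAS match at -98 and 2 ISRE matches from -20, and Gbp7 (chr3:142530186-142530335, plus strand) holds GAS matches at -106 and -87 and an ISRE match at -53. Irf1 (chr11:53769864-53770013, plus strand) and Psmb8 (chr17:34198045-34198194, plus strand) hold a GAS match each, at -90 and -97, and no ISRE match.
Isg15: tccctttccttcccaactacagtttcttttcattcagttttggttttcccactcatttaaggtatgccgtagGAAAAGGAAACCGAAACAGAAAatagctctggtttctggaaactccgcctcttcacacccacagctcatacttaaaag
Bst2: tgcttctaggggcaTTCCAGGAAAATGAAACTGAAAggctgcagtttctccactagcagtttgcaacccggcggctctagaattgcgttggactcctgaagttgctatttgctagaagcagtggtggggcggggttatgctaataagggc
Oas1a: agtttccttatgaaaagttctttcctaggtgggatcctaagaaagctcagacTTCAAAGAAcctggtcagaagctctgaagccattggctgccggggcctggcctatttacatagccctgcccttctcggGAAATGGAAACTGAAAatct
Gbp7: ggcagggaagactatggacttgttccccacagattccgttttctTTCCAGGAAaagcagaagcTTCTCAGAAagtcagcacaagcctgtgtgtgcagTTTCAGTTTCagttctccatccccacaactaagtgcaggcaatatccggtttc
Irf1: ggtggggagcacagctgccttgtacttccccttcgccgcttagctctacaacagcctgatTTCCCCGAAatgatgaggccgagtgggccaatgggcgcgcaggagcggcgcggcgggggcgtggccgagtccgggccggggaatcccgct
Psmb8: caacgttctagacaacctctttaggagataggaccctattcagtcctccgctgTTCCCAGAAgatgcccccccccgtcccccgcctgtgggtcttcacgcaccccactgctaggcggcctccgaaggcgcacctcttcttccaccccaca

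Ligand transcripts were close to absent from these cells, whereas the receptors were present in every library. The 10 ligand genes looked at, among them Ifnb1, Ifng and the lambda interferons Ifnl2 and Ifnl3, had 16 UMIs in all 10 libraries together, and 6 of the 10 were at 0. Ifnar2, a chain of the type I receptor, lay between 32.6 and 62.6 CPM, and Ifngr1, a chain of the gamma receptor, between 24.6 and 33.8 CPM. The lambda receptor chain Ifnlr1 lay between 3.02 and 5.96 CPM. The kinase Jak1, which serves both pathways, lay between 30.7 and 46.2 CPM. The factor Irf3, which acts upstream of interferon genes, lay between 26.4 and 38.3 CPM, and Socs3, an inhibitor of cytokine signalling, between 66.9 and 113 CPM. No gene of the 71 in the list of ligands, receptors, kinases, sensors, inhibitors and further response genes passed an adjusted p of 0.05 (edgeR's quasi-likelihood test, Benjamini-Hochberg over all genes tested) in any comparison, and 59 of them had enough UMIs to be tested against Confetti.

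The summed level of each class set the Red2Kras libraries above the Confetti libraries. The 25 type I-like members together stood at 283 and 323 CPM in Confetti RFP+ and YFP+ cells, at 376 and 938 CPM in 4 days RFP+ cells, at 553 and 1403 CPM in YFP+ cells at 4 days, at 505 and 464 CPM in 2 weeks RFP+ cells, and at 813 and 763 CPM in 2 weeks YFP+ cells. All 8 Red2Kras libraries lay above both Confetti libraries, and the replicates at 4 days lay further apart than those at 2 weeks. The 12 IFN-gamma-like members together stood at 225 and 212 CPM in Confetti, at 255 and 417 CPM in 4 days RFP+ cells, at 316 and 594 CPM in YFP+ cells at 4 days, at 303 and 240 CPM in 2 weeks RFP+ cells, and at 456 and 455 CPM in 2 weeks YFP+ cells. Again all 8 lay above Confetti, and at 2 weeks both YFP+ libraries lay above both RFP+ libraries in either class. The members Ifitm3, Bst2, Ifi27l2a and Isg15, made up 66.1% to 85.3% of the type I-like sum, and Psmb8, Psmb9, Irf1 and AW112010 made up 77.3% to 86.7% of the IFN-gamma-like sum, so the sums speak mainly for these genes. The ratio of the type I-like to the IFN-gamma-like sum ran from 1.26 in Confetti RFP+ cells to 2.36 in 4 days YFP replicate 2.

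**Figure D1:**
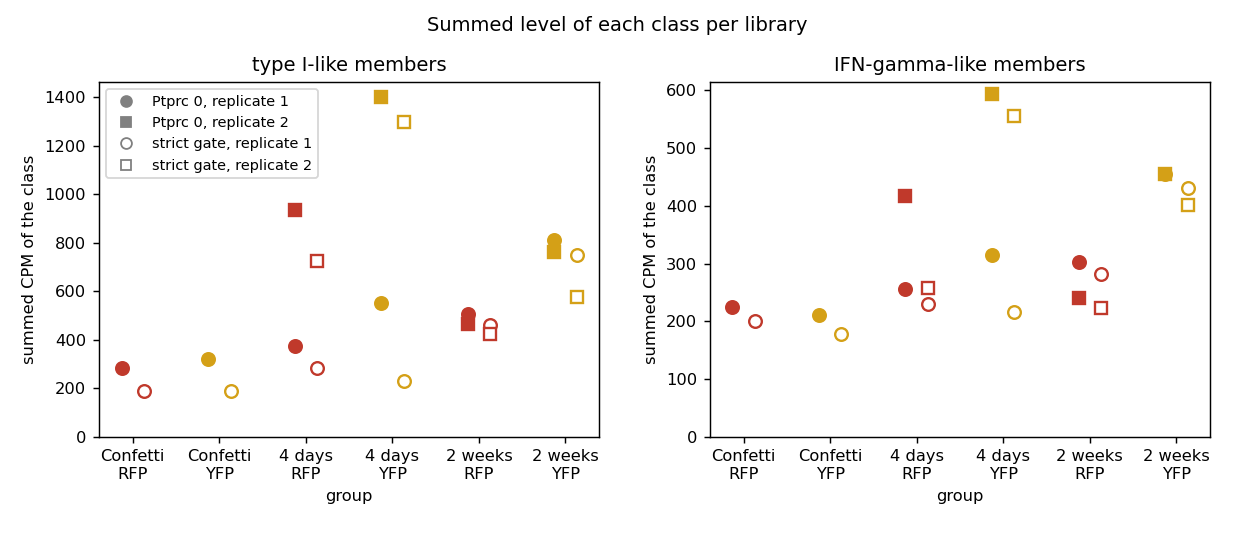
Summed TMM-scaled CPM of the 25 type I-like (left) and 12 IFN-gamma-like members (right), one point per library, by group (red RFP+, yellow YFP+, circles replicate 1, squares replicate 2, filled points Ptprc 0 cells, open points the strict gate). The type I-like sum ran from 283 CPM in Confetti RFP+ cells to 1403 CPM in 4 days YFP replicate 2, and 4 days YFP replicate 1 dropped from 553 to 229 CPM under the strict gate.

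Compared with Confetti, most members stood higher in wildtype neighbours at both times, yet none passed the threshold. In 4 days YFP+ cells, 36 of 37 members had both libraries above both Confetti libraries, 25 of 25 type I-like and 11 of 12 IFN-gamma-like, where 15% of all genes did so. In 2 weeks YFP+ cells, 31 of 37 did so (21 and 10) against 24.4% of all genes, and 1 lay below both (26.8% of all genes). In mutant cells 22 of 37 lay above both Confetti libraries at 4 days (22.5% of all genes), and at 2 weeks 21 of 37 lay above (36.3%) and 4 below (35.9%). The median log2 fold change of the type I-like members was 1.52 in YFP+ cells at 4 days, 1.20 in 2 weeks YFP+, 1.08 in 4 days RFP+ and 0.51 in 2 weeks RFP+ cells, and that of the IFN-gamma-like members was 1.35, 1.39, 0.84 and 0.52. Over all 14856 genes tested the medians were 0.04, 0.00, 0.00 and 0.02. In 4 days RFP+ cells the class medians were 0.37 and 0.28 without replicate 2, and 1.56 and 1.27 without replicate 1. In 2 weeks RFP+ cells the IFN-gamma-like median was -0.06 without replicate 1. Among wildtype neighbours the medians at 4 days were 0.77 and 0.87 without replicate 2, and the IFN-gamma-like median at 2 weeks was 0.89 without replicate 1. The strict gate gave type I-like medians of 2.15 and 2.08 in YFP+ cells at 4 days and 2 weeks, and of 1.55 and 1.69 in RFP+ cells. The IFN-gamma-like medians were 1.40 and 1.44 in YFP+ cells and 0.56 and 0.78 in RFP+ cells. Under that gate the type I-like sums of the 4 days YFP+ libraries were 229 and 1301 CPM, against 189 and 188 CPM in Confetti. Replicate 2 thus stood far above replicate 1 there. These 4 comparisons share the Confetti libraries, so they are set side by side and not tested against each other.

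No member was called in these 4 comparisons by edgeR at an adjusted p of 0.05, where the share of all genes called was 0 in 4 days RFP+, 0 in YFP+ cells at 4 days, 0.0202% in 2 weeks RFP+ and 0.00673% in 2 weeks YFP+ cells. At an unadjusted p under 0.05, 23 members were higher in YFP+ cells at 4 days (0.936% of all genes), 16 in 2 weeks YFP+ (3.35%), 7 in 4 days RFP+ (4.54%) and 6 in 2 weeks RFP+ cells (15%), and 1 was lower in 2 weeks RFP+ cells (9.82%). DESeq2 called 3 members in 2 weeks RFP+ cells, Ifit3, Oas1a and Bst2, all higher, where it called 12.1% of all genes. It called no member in the other 3 comparisons, where it called 0.848% of all genes in 4 days RFP+, 0.0606% in 4-day YFP+ and 0.330% in 2 weeks YFP+ cells. With 1 Confetti library per colour, the spread of Confetti cells was not measured, and the fit assumed it to be that of the Red2Kras pairs.

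**Figure D2:**
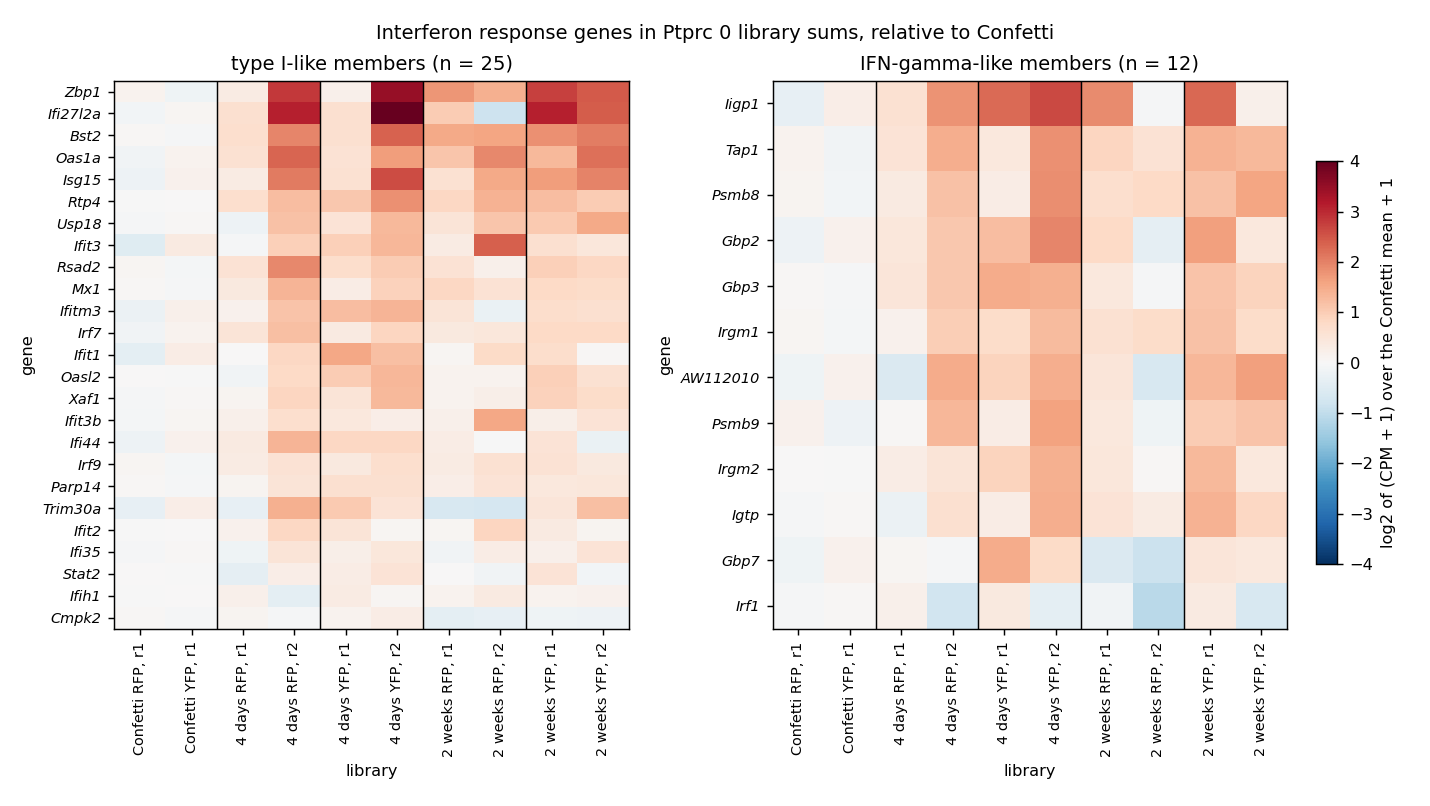
Level of each of the 37 members (rows) in each of the 10 libraries (columns, r1 and r2 the replicates), as log2 of CPM + 1 over the mean Confetti CPM + 1, with the 25 type I-like members left and the 12 IFN-gamma-like members right, each sorted by its mean. Zbp1, Ifi27l2a and Bst2 head the type I-like rows and Iigp1 the IFN-gamma-like rows, while Gbp7 and Irf1 close the IFN-gamma-like rows with values below Confetti in both 2 weeks RFP+ libraries.

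Among the type I-like members, Bst2, which encodes the membrane tether tetherin, was higher than in Confetti in every Red2Kras library. It stood at 56.6 and 51.9 CPM in Confetti RFP+ and YFP+ cells, 86.7 and 215 CPM in 4 days RFP+, 85.4 and 282 CPM in YFP+ cells at 4 days, 157 and 165 CPM in 2 weeks RFP+, and 194 and 225 CPM in 2 weeks YFP+ cells. No Red2Kras library overlapped with Confetti, and at 2 weeks both YFP+ libraries lay above both RFP+ libraries. The log2 fold change over Confetti was 1.47 ± 0.61 (SE) in 4 days RFP+, 1.76 ± 0.61 in YFP+ cells at 4 days, 1.57 ± 0.61 in 2 weeks RFP+ and 1.95 ± 0.61 in 2 weeks YFP+ cells, with edgeR adjusted p of 0.794, 1.000, 0.170 and 0.790. DESeq2 gave an adjusted p of 0.0431 for the 2 weeks RFP+ cells.

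Isg15 and Zbp1 showed the same order at 2 weeks and a wide spread at 4 days. Isg15 stood at 13.1 and 17.3 CPM in Confetti, 19.4 and 67.5 CPM in 4 days RFP+, 23.6 and 98.0 CPM in YFP+ cells at 4 days, 23.6 and 45.4 CPM in 2 weeks RFP+, and 51.1 and 63.7 CPM in 2 weeks YFP+ cells. Both 2 weeks YFP+ libraries were above both 2 weeks RFP+ libraries, while at 4 days the replicates differed more than the colours. The log2 fold change of Isg15 over Confetti was 1.93 ± 0.79 in 2 weeks YFP+ and 1.19 ± 0.77 in 2 weeks RFP+ cells (edgeR adjusted p = 0.790 and 0.353). Zbp1, a sensor of Z-form nucleic acid that can trigger necroptosis, stood at 1.42 and 0.935 CPM in Confetti, 1.73 and 14.5 CPM in 4 days RFP+, 1.52 and 23.2 CPM in YFP+ cells at 4 days, 6.47 and 4.88 CPM in 2 weeks RFP+, and 13.4 and 10.9 CPM in 2 weeks YFP+ cells. At 4 days its level was high in replicate 2 of both colours and near Confetti in replicate 1, whereas at 2 weeks every library was above Confetti and YFP+ above RFP+. Its log2 fold change in 2 weeks YFP+ cells was 3.39 ± 1.33 (edgeR adjusted p = 0.790).

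In all Ptprc 0 cells, Ifi27l2a and Ifitm3 stood on both sides of Confetti in the 2 weeks RFP+ libraries. Ifi27l2a, a small mitochondrial protein gene of the ISG12 family, stood at 23.2 and 26.6 CPM in Confetti, 39.5 and 221 CPM in 4 days RFP+, 39.1 and 531 CPM in YFP+ cells at 4 days, 51.3 and 13.6 CPM in 2 weeks RFP+, and 224 and 138 CPM in 2 weeks YFP+ cells. Its lowest value was in a mutant library and its highest in a wildtype library, and the 4 days replicates differed widely in both colours. Between the colours at 2 weeks its log2 fold change was -2.48 ± 1.27 (edgeR adjusted p = 0.440), with no overlap of the libraries. Ifitm3, which blocks virus entry at membranes, stood at 94.0 and 126 CPM in Confetti, 123 and 246 CPM in 4 days RFP+, 258 and 287 CPM in YFP+ cells at 4 days, 156 and 90.7 CPM in 2 weeks RFP+, and 179 and 171 CPM in 2 weeks YFP+ cells. Its 4 days YFP+ libraries were the highest of the 10 and close to each other, with a log2 fold change over Confetti of 1.32 ± 0.40 (edgeR adjusted p = 1.000). Under the strict gate they stood at 29.8 and 242 CPM against 26.2 and 28.6 CPM in Confetti, so replicate 1 was near Confetti. The same gate put Ifitm3 in the 2 weeks RFP+ libraries at 134 and 73.9 CPM, both above Confetti.

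Ifit3, an RNA-binding restriction factor, was highest in one mutant library. It stood at 0.0593 and 0.873 CPM in Confetti, 0.406 and 1.84 CPM in 4 days RFP+, 1.86 and 2.70 CPM in YFP+ cells at 4 days, 0.839 and 6.68 CPM in 2 weeks RFP+, and 1.28 and 1.01 CPM in 2 weeks YFP+ cells. The RFP+ minus YFP+ log2 fold change at 2 weeks was 1.69 ± 1.04 (edgeR adjusted p = 0.509), against -0.52 without 2 weeks RFP replicate 2, so 1 library set its direction. Ifit3b, its near-identical neighbour, followed with 0.349 and 2.49 CPM in the 2 weeks RFP+ libraries, and reads of this pair may be split or lost in counting because the genes are alike. Ifit2, Ifit3, Ifit3b and Ifit1 lie together at chr19:34550694-34650009 (GRCm38).

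Some antiviral members were nearly silent in Confetti cells. Mx1, a dynamin-like restriction factor, had 1 UMI in both Confetti libraries together and 147 UMIs in the 8 Red2Kras libraries, a ratio of rates of 24.1 with a 95% counting interval of 4.25 to 957. Ifit2 had 2 UMIs and 75 UMIs, a ratio of 6.14 with an interval of 1.64 to 51.6. These intervals cover counting error only, not the spread between pools. Oas1a, which makes the oligoadenylate activator of RNase L and was picked for naming after its values were seen, stood at 0.119 and 0.374 CPM in Confetti, 0.914 and 5.31 CPM in 4 days RFP+, 0.847 and 2.94 CPM in YFP+ cells at 4 days, 1.69 and 3.71 CPM in 2 weeks RFP+, and 2.06 and 4.75 CPM in 2 weeks YFP+ cells. All 8 Red2Kras libraries lay above Confetti. Its log2 fold change was 3.64 ± 1.14 in 2 weeks RFP+ and 3.95 ± 1.16 in 2 weeks YFP+ cells (edgeR adjusted p = 0.124 and 0.790), and DESeq2 gave an adjusted p of 0.0171 for the former. With the strict gate its level in 2 weeks YFP replicate 2, the library with the most leukocyte RNA, was 1.21 CPM, against 1.88 CPM in replicate 1 and 1.64 and 3.50 CPM in the 2 weeks RFP+ libraries.

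The remaining type I-like members are given by their range. Usp18, Rtp4, Irf9, Irf7 and Xaf1 ran from 1.42 to 6.91, 3.79 to 16.3, 10.0 to 17.7, 4.98 to 14.3 and 10.0 to 26.9 CPM, and each had its lowest value in Confetti except Usp18, which was lowest in 4 days RFP replicate 1. Ifi44, Rsad2, Oasl2 and Ifit1 ran from 0.432 to 3.36, 0.374 to 4.55, 1.98 to 7.21 and 0.474 to 4.57 CPM. Parp14, Stat2, Ifi35 and Ifih1 ran from 7.92 to 13.5, 5.79 to 11.8, 27.2 to 45.3 and 6.18 to 11 CPM. Cmpk2, a mitochondrial nucleotide kinase gene that lies beside Rsad2 at chr12:26442746-26479837, was the one member below both Confetti libraries in both 2 weeks groups, at 2.25 and 2.06 CPM in Confetti, 1.40 and 1.5 CPM in RFP+ and 1.82 and 1.73 CPM in YFP+ cells. Its YFP+ libraries under the strict gate, at 1.64 and 1.73 CPM, overlapped with Confetti, at 1.81 and 1.71 CPM.

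**Figure D3:**
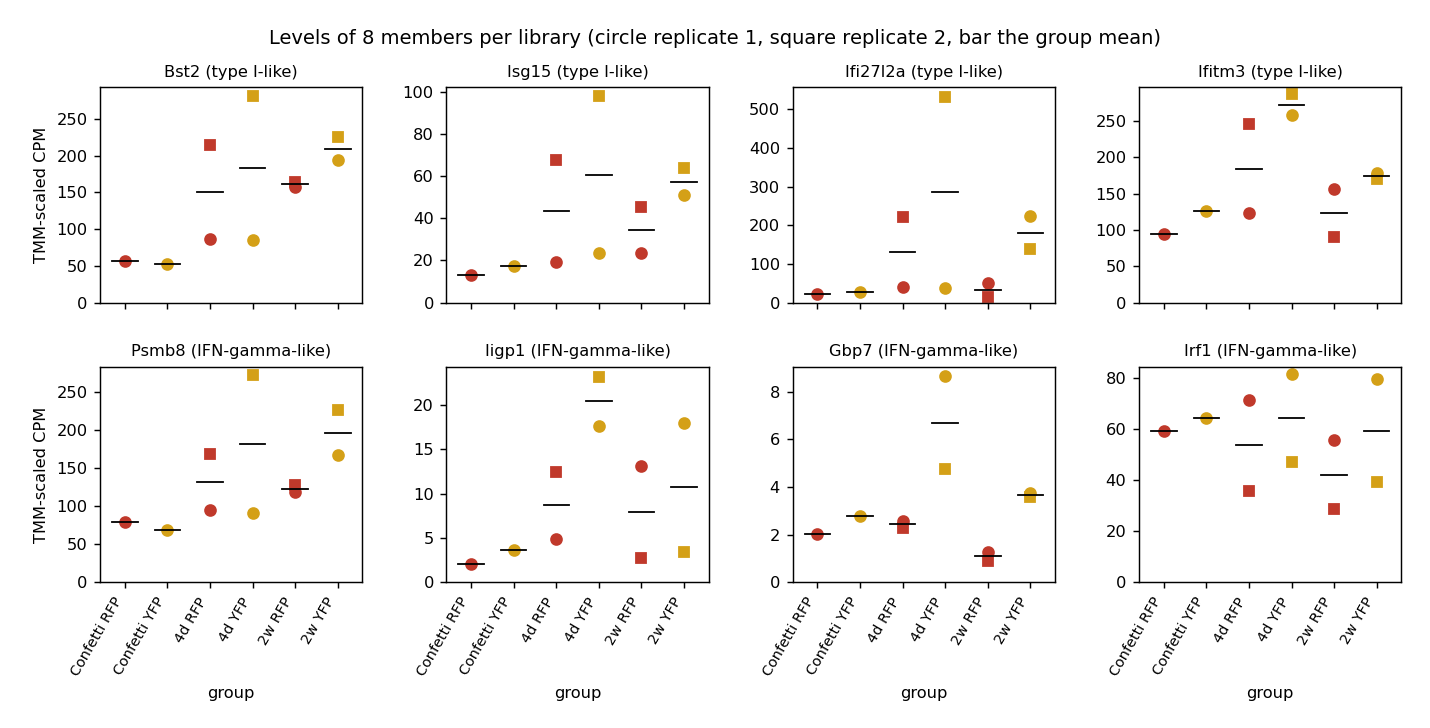
TMM-scaled CPM of 8 members in each library by group (red RFP+, yellow YFP+, circle replicate 1, square replicate 2, bar the group mean). Bst2 lay above its Confetti levels of 56.6 and 51.9 CPM in every Red2Kras library, while the 4 RFP+ libraries of Gbp7, 0.889 to 2.59 CPM, all lay below its 4 YFP+ libraries, 3.60 to 8.64 CPM.

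The antigen-processing genes of the IFN-gamma-like class lie in one block of the major histocompatibility region, chr17:34181987-34201454, and stood above Confetti in the wildtype libraries. Psmb8 stood at 80.0 and 68.6 CPM in Confetti, 94.9 and 169 CPM in 4 days RFP+, 90.9 and 273 CPM in YFP+ cells at 4 days, 118 and 129 CPM in 2 weeks RFP+, and 167 and 226 CPM in 2 weeks YFP+ cells. All 8 Red2Kras libraries lay above Confetti, and at 2 weeks the colours did not overlap. Its log2 fold change over Confetti was 1.41 ± 0.53 in 2 weeks YFP+ and 0.74 ± 0.52 in 2 weeks RFP+ cells (edgeR adjusted p = 0.790 and 0.393). Psmb9 stood at 44.5 and 34.2 CPM in Confetti, 40.6 and 99.2 CPM in 4 days RFP+, 48.1 and 122 CPM in YFP+ cells at 4 days, 52.6 and 34.8 CPM in 2 weeks RFP+, and 81.0 and 87.9 CPM in 2 weeks YFP+ cells. Both 2 weeks YFP+ libraries exceeded Confetti and both mutant libraries, with a log2 fold change between the colours of -0.95 ± 0.54 (edgeR adjusted p = 0.473), while the mutant libraries overlapped with Confetti. Under the strict gate Psmb9 in 4 days YFP replicate 1, at 42.1 CPM, lay between the Confetti libraries at 43.4 and 33.3 CPM. Tap1 ran from 8.29 to 35.5 CPM and lay above Confetti in all 8 Red2Kras libraries.

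The GTPases and AW112010, a transcript with a short translated reading frame, followed with wider spreads. Iigp1 stood at 2.07 and 3.62 CPM in Confetti, 4.87 and 12.5 CPM in 4 days RFP+, 17.6 and 23.2 CPM in YFP+ cells at 4 days, 13.2 and 2.72 CPM in 2 weeks RFP+, and 18.0 and 3.45 CPM in 2 weeks YFP+ cells. It was high in YFP+ cells at 4 days and in replicate 1 at 2 weeks, with a log2 fold change over Confetti of 2.90 ± 0.98 in YFP+ cells at 4 days (edgeR adjusted p = 1.000). With the strict gate its 4 days YFP+ libraries stood at 1.57 and 22.9 CPM and the Confetti libraries at 0.250 and 0.137 CPM. Replicate 2 was thus far higher than replicate 1 in the 4 days YFP+ cells. The 2 weeks replicate 2 libraries stood at 2.91 CPM in RFP+ and 3.45 CPM in YFP+ cells under that gate. All 8 Red2Kras libraries then lay above both Confetti libraries in Iigp1. Gbp2 stood at 1.84 and 2.74 CPM in Confetti, 3.50 and 5.96 CPM in 4 days RFP+, 6.69 and 11.6 CPM in YFP+ cells at 4 days, 4.75 and 1.58 CPM in 2 weeks RFP+, and 9.32 and 3.45 CPM in 2 weeks YFP+ cells. AW112010 stood at 10.7 and 13.8 CPM in Confetti, 7.92 and 36.2 CPM in 4 days RFP+, 23.6 and 35.2 CPM in YFP+ cells at 4 days, 17.5 and 7.42 CPM in 2 weeks RFP+, and 32.4 and 40.7 CPM in 2 weeks YFP+ cells. The colours of Gbp2 overlapped at 2 weeks and those of AW112010 at 4 days. With the strict gate AW112010 stood at 6.01 and 3.56 CPM in Confetti, 3.80 and 4.76 CPM in 4 days RFP+ and 1.38 and 20.1 CPM in YFP+ cells at 4 days, so 1 of these 4 Red2Kras libraries lay above both Confetti libraries. Irgm1 ran from 7.73 to 21.3 CPM, Igtp from 2.79 to 11.4 CPM, Irgm2 from 1.87 to 6.67 CPM and Gbp3 from 0.249 to 2.63 CPM.

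Mutant cells stood below their wildtype neighbours in the IFN-gamma-like members, a smaller gap being seen in the type I-like members. Over both times, with time point as a term, all 12 IFN-gamma-like members had a log2 fold change below 0 with a median of -0.88, and 20 of 25 type I-like members had one below 0 with a median of -0.30, against a median of -0.04 over the 13498 genes tested. At 4 days the medians were -0.68 and -0.29 (-0.03 over all genes), and at 2 weeks -0.85 and -0.32 (-0.01). The 12 IFN-gamma-like members stayed below 0 over both times in each of the 16 alternative settings, with medians between -1.05 and -0.63. The type I-like median over both times moved more, to -0.14 without 4 days RFP replicate 1, -0.60 without 4 days RFP replicate 2, -0.16 without 4 days YFP replicate 2 and -0.19 without 2 weeks RFP replicate 1. Single libraries also moved the medians within a time point. The IFN-gamma-like median at 4 days was -1.24 without RFP replicate 2 and -0.31 without YFP replicate 2, and at 2 weeks -1.21 without RFP replicate 1 and -0.54 without YFP replicate 1. The type I-like median at 4 days was 0.15 without RFP replicate 1, -0.90 without RFP replicate 2 and -0.01 without YFP replicate 2, and at 2 weeks -0.58 without RFP replicate 2. Libraries were also set side by side by replicate number, which the labels give without saying what it stands for. In all Ptprc 0 cells the pairs had IFN-gamma-like medians of -0.57 and -0.53 at 4 days on the log2(CPM + 1) scale. At 2 weeks they were -0.67 and -0.75, and in both pairs none of the 12 was higher in RFP+ cells. Under the strict gate both class sums turned round in the replicate 1 pair at 4 days. RFP+ cells stood at 285 CPM type I-like and 231 CPM IFN-gamma-like there, against 229 and 216 CPM in YFP+ cells. In every other pair both sums stayed lower in RFP+ cells under that gate. The airway secretory sum was lower in RFP+ cells at 2 weeks, though by a narrow margin between the nearest libraries, at 319.5 and 2148 CPM in RFP+ against 2156 and 17233 CPM in YFP+ cells, and overlapped at 4 days, at 4768 and 16248 CPM against 9359.7 and 7250.5 CPM, and its part in these differences was not tested.

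In the fit without a replicate block no member was called by edgeR between the colours, nor was any gene of the whole table. The share of all genes called was 0 at 4 days, 0 at 2 weeks and 0 over both times. With a replicate block by time point edgeR called 1 member over both times, and 96 of 14022 genes. A block by the replicate number alone gave 0 members and 3 of 14022 genes. At an unadjusted p under 0.05, 1 member was lower in RFP+ cells at 4 days (0.868% of all genes), 3 at 2 weeks (5.46%) and 7 over both times (7.63%), 5 of the 7 being IFN-gamma-like. Libraries did not overlap for 12 members at 4 days (13.6% of all genes), 19 at 2 weeks (22.5%) and 1 over both times (3.50%), all lower in RFP+ cells. DESeq2 called 0 members at either time (0.283% of all genes at 4 days and 2.18% at 2 weeks) and 1 over both times (5.21% of all genes, a larger share than 1 of 37).

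That member was Gbp7, a guanylate-binding protein of the cluster with Gbp3 and Gbp2 at chr3:142530342-142638008. Gbp7 stood at 2.02 and 2.81 CPM in Confetti, 2.59 and 2.28 CPM in 4 days RFP+, 8.64 and 4.74 CPM in YFP+ cells at 4 days, 1.29 and 0.889 CPM in 2 weeks RFP+, and 3.77 and 3.60 CPM in 2 weeks YFP+ cells. All 4 mutant libraries lay below all 4 wildtype libraries of Red2Kras lungs, and the 2 weeks RFP+ libraries also lay below both Confetti libraries. The log2 fold change between the colours was -1.45 ± 0.44 at 4 days (edgeR adjusted p = 0.999), -1.75 ± 0.45 at 2 weeks (0.317) and -1.63 ± 0.29 over both times (0.180). The adjusted p was 0.000680 with DESeq2, 0.0203 with no filter on low counts and 0.0470 without 4 days RFP replicate 1. Gbp7 was also called by edgeR with the replicate block by time point. Ptprc-positive cells held 13.9 to 40.9 CPM of Gbp7, and the edgeR fit under the strict gate called no member over both times. Under that gate the 4 RFP+ libraries stood at 0.472 to 1.42 CPM and the 4 YFP+ libraries at 1.48 to 4.46 CPM. The replicate 1 libraries at 4 days were the nearest, at 1.42 CPM in RFP+ and 1.48 CPM in YFP+ cells, the latter down from 8.64 CPM. Confetti stood at 0.813 and 1.03 CPM under the strict gate. The 2 weeks RFP+ libraries stood at 0.899 and 0.472 CPM, so replicate 1 was no longer below both Confetti libraries.

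Other members of the class showed the same direction with more overlap. Over both times the log2 fold change was -1.03 ± 0.44 for Gbp2 (edgeR adjusted p = 0.302), -1.02 ± 0.51 for AW112010 (0.365), -0.88 ± 0.62 for Iigp1 (0.510), -0.65 ± 0.38 for Psmb9 (0.436) and -0.59 ± 0.35 for Psmb8 (0.433). AW112010 at 2 weeks had a log2 fold change of -1.55 ± 0.69 (0.407) with no overlap. Under the strict gate the colours of AW112010 overlapped, at 15.7 and 4.30 CPM in RFP+ and 27.8 and 9.15 CPM in YFP+ cells, and Ptprc-positive cells of 2 weeks YFP replicate 2 held 592 CPM. Of the type I-like members, Ifitm3 had -0.56 ± 0.26 over both times (0.333). Trim30a, a negative regulator of NF-κB signalling named after its values were seen, stood at 1.08 and 1.07 CPM in 2 weeks RFP+ against 3.61 and 6.47 CPM in 2 weeks YFP+ cells, a log2 fold change of -2.21 ± 0.73 (0.350), and overlapped at 4 days with 1.62 and 7.69 CPM against 5.68 and 3.78 CPM. Its 2 weeks YFP+ libraries stood at 2.88 and 2.24 CPM with the strict gate and its 2 weeks RFP+ libraries at 0.884 and 0.860 CPM, and Ptprc-positive cells held 45.1 to 95.7 CPM of it.

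**Figure D4:**
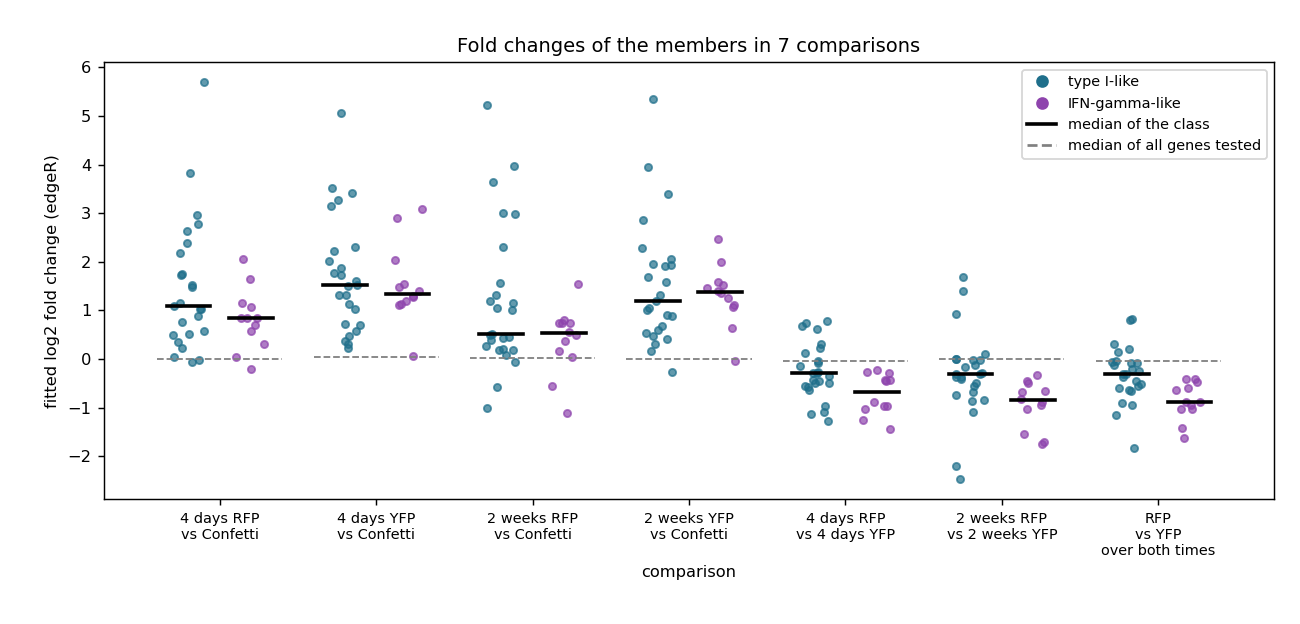
edgeR log2 fold change of each of the 25 type I-like (blue) and 12 IFN-gamma-like (purple) members in 7 comparisons, with the class median (black bar) and the median of all genes tested (dashed line). Medians over Confetti lie between 0.51 and 1.52, and all 12 IFN-gamma-like points lie below 0 in the 3 comparisons of RFP+ with YFP+ cells. The topmost point in each comparison with Confetti is Mx1, whose fitted value rests on 1 Confetti UMI.

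Irf1, the transcription factor at the head of the gamma response, differed mainly between replicates. It stood at 59.3 and 64.2 CPM in Confetti, 71.3 and 35.9 CPM in 4 days RFP+, 81.6 and 47.0 CPM in YFP+ cells at 4 days, 55.6 and 28.6 CPM in 2 weeks RFP+, and 79.5 and 39.3 CPM in 2 weeks YFP+ cells. In each same-numbered pair RFP+ was below YFP+, and its log2 fold change between the colours over both times was -0.41 ± 0.35 (edgeR adjusted p = 0.600). Under the strict gate the replicate 1 pair at 4 days went the other way, at 63.3 CPM in RFP+ and 54.3 CPM in YFP+ cells. The other pairs kept their direction under that gate. In all 4 Red2Kras groups replicate 2 was the lower library of Irf1. The immediate-early gene Fos was likewise lower in replicate 2 of all 4 groups, at 500.3 to 713 CPM against 699 to 1433 CPM in replicate 1. Most other members went the other way at 4 days: replicate 2 was above replicate 1 for 23 of 25 type I-like and 10 of 12 IFN-gamma-like members in RFP+ cells and for 20 and 9 in YFP+ cells. At 2 weeks this held for 16 and 2 members in RFP+ cells and for 9 and 3 in YFP+ cells. The part of sex, handling or sequencing in these replicate differences was not tested.

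Between the 2 times no member was called by edgeR, in RFP+ cells (0 of all genes) or in YFP+ cells (0 of all genes). In RFP+ cells the median log2 fold change of 2 weeks over 4 days was -0.18 for type I-like and -0.36 for IFN-gamma-like members (-0.02 over all genes), 2 members were lower at an unadjusted p under 0.05 (3.53% of all genes), and 6 lay below at 2 weeks without overlap (17.6%). In YFP+ cells the medians were -0.09 and -0.08, no member had an unadjusted p under 0.05, and 9 lay below without overlap (11.4%). The direction of these medians depended on the setting, the type I-like median in RFP+ cells lying between -0.72 and 0.36. The difference between the times in the gap between the colours, tested as an interaction in edgeR, was called for 0 members and 0 of all genes, with 0 members at an unadjusted p under 0.05 and 0 called by DESeq2 (0 of all genes). DESeq2 also called 0 members between the times, where it called 0.646% of all genes in RFP+ and 0.0269% in YFP+ cells.

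The strict gate lowered the sums of both classes in every library. Under it the type I-like sums were 189 and 188 CPM in Confetti, 285 and 726 CPM in 4 days RFP+, 229 and 1301 CPM in YFP+ cells at 4 days, 460 and 425 CPM in 2 weeks RFP+, and 751 and 575 CPM in 2 weeks YFP+ cells. All 8 Red2Kras libraries were again above both Confetti libraries, and 4 days YFP replicate 1, the library with the most endothelial RNA, moved from 553 to 229 CPM. In that library Isg15 and Zbp1 stood at 12.1 and 0.885 CPM, against 10.8 and 13.1 CPM and 1.38 and 0.959 CPM in Confetti. Members above Confetti without overlap numbered 28 in YFP+ cells at 4 days, 33 in 2 weeks YFP+, 26 in 4 days RFP+ and 27 in 2 weeks RFP+ cells, against 16.2%, 24.7%, 24.4% and 37.1% of all genes under the same gate. Lower members without overlap between the colours numbered 3 at 4 days (15.5% of all genes) and 17 at 2 weeks (25.1%), against 12 and 19 in all Ptprc 0 cells. Some members were far lower in Confetti cells under the gate: Iigp1 went from 2.07 and 3.62 to 0.250 and 0.137 CPM, and Ifitm3 from 94.0 and 126 to 26.2 and 28.6 CPM. Bst2 (51.2 and 43.8 CPM), Psmb8 (77.6 and 67.9 CPM) and Irf1 (50.7 and 50.8 CPM) stayed close to their Confetti levels in all Ptprc 0 cells. In 4 days RFP replicate 2, where the chemokine Cxcl9 stood at 18.7 CPM and Irf8 at 22.6 CPM in Ptprc 0 cells, the type I-like sum went from 938 to 726 CPM and the IFN-gamma-like sum from 417 to 258 CPM. The summed level of the leukocyte genes was 0.73 to 2.81 CPM in all libraries under the gate. Because the gate itself drops cells by leukocyte genes, a low value follows from the selection.

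The members were not spread evenly over cells. With each cell thinned to 2000 UMIs (30541 cells, 58 left out as too shallow), between 42.9% and 71.0% of cells in a library had no UMI of any type I-like member, and the 5% of cells with the most held 39.0% to 65.1% of the class's UMIs. Cells with UMIs of at least 5 type I-like members made up 0.358% (14 of 3906, exact 95% interval 0.196% to 0.601%) and 0.512% of Confetti RFP+ and YFP+ cells. Their share was 0.632% and 3.49% in 4 days RFP+, 1.87% and 3.11% in YFP+ cells at 4 days, 1.03% and 1.13% in 2 weeks RFP+, and 1.58% and 1.76% in 2 weeks YFP+ cells. All 8 Red2Kras libraries were above Confetti, although the intervals of 4 days RFP replicate 1 (0.405% to 0.939%) and of both 2 weeks RFP+ libraries (0.741% to 1.39% and 0.776% to 1.59%) reached into that of Confetti YFP+ cells (0.317% to 0.782%). These intervals cover the sampling of cells within a library and not the spread between pools. Under the strict gate the shares were 0.0798% and 0.0517% in Confetti, 0.191% and 1.85% in 4 days RFP+, 0.121% and 2.84% in YFP+ cells at 4 days, 0.836% and 0.977% in 2 weeks RFP+, and 1.32% and 1.13% in 2 weeks YFP+ cells. All 8 Red2Kras shares were again above both Confetti shares, those of replicate 1 at 4 days by the least. These rested on 7 of 3666 RFP+ and 2 of 1655 YFP+ cells, against 3 of 3759 and 2 of 3866 Confetti cells. Their exact 95% intervals, 0.0768% to 0.393% and 0.0146% to 0.436%, overlapped with those of Confetti, 0.0165% to 0.233% and 0.00627% to 0.187%.

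Cells with at least 4 IFN-gamma-like members made up 0.461% and 0.707% of Confetti cells, 0.474% and 2.03% of 4 days RFP+, 1.93% and 2.04% of 4 days YFP+, 0.856% and 0.283% of 2 weeks RFP+, and 1.40% and 0.879% of 2 weeks YFP+ cells. In the same-numbered pairs of 2 weeks libraries YFP+ was higher in both. Under the strict gate 2 weeks RFP replicate 2 stood at 0.0782% and 2 weeks YFP replicate 2 at 0.307%, and replicate 1 at 0.653% and 1.19%. With that gate Confetti stood at 0.0798% (3 of 3759 cells) and 0.0776% (3 of 3866 cells), and 4 days RFP+ cells at 0.164% and 0.785%. The 4 days YFP+ libraries stood at 0.242% and 1.76%, so they were no longer close to each other. Between 5% and 52.9% of the cells with at least 5 type I-like members also had at least 4 IFN-gamma-like members, where 0.283% to 2.04% of all cells did. The cells with at least 5 type I-like members held 10.5% of the type I-like UMIs in Confetti RFP+ cells and up to 30.5% in 4 days RFP replicate 2. Outside these cells the mean was 0.501 and 0.582 type I-like UMIs per 2000 in Confetti RFP+ and YFP+ cells and 0.611 to 1.85 in the 8 Red2Kras libraries, so all 8 were above Confetti there too. Single members were seen in more cells: Bst2 had a UMI in 10.1% and 9.51% of Confetti cells, 24.2% and 23.1% of 2 weeks RFP+ cells and 23.8% and 26.9% of 2 weeks YFP+ cells. Free RNA in droplets can add UMIs to cells that do not express a gene, and its part in these shares was not tested.

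**Figure D5:**
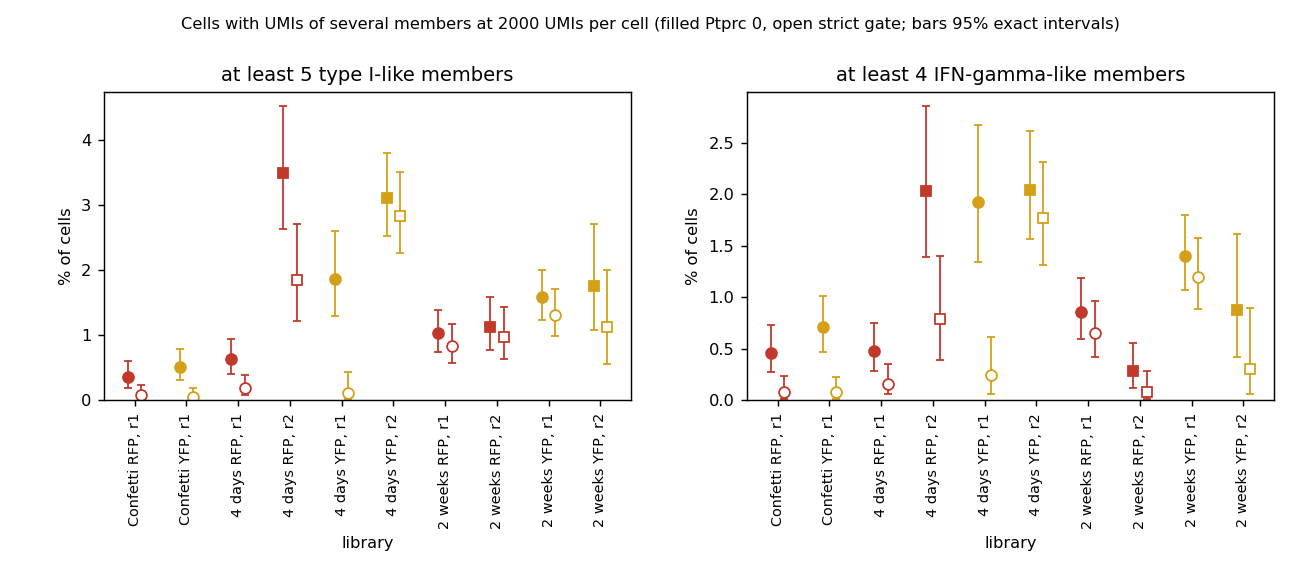
Share of cells, thinned to 2000 UMIs, with a UMI of at least 5 type I-like members (left) and at least 4 IFN-gamma-like members (right) in each library, with exact 95% intervals (filled points Ptprc 0 cells, open points the strict gate, red RFP+, yellow YFP+). The type I-like share ran from 0.358% in Confetti RFP+ cells to 3.49% in 4 days RFP replicate 2, and the strict gate lowered 4 days YFP replicate 1 from 1.87% to 0.121%.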

How the data were processed

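Single-cell 3′ RNA-seq libraries (10x Genomics v3) were made from EpCAM+ RFP+ or YFP+ lung cells. The deposited values are raw UMI counts per gene and cell, made by the authors with Cell Ranger on GRCm38, with empty droplets removed. The submitters' processing notes name version 3.1.0 and the matrix headers version 5.0.1. Because counts come from the 3′ end, levels are not comparable between genes.

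Of 42012 barcodes, 32698 had at least 1000 genes, at most 50000 UMIs and at most 15% mitochondrial UMIs, and 30599 of these had 0 Ptprc UMIs. Doublets were not called. UMIs were summed per library and tested with edgeR 4.0.16 in R 4.3.3 (TMM, filterByExpr, quasi-likelihood test, Benjamini-Hochberg over all genes tested, threshold 0.05). The fit held all 10 libraries in 6 groups, or the 8 Red2Kras libraries with time point as a term for RFP+ against YFP+ over both times. Fold changes over Confetti are against the mean of both Confetti coefficients. DESeq2 1.42.0, RLE scaling, no filter on low counts, other cell gates, replicate blocks, the Confetti library of the same colour alone and leaving out each library were alternatives. The fit was also run on simulated data, and the outcome is not reported here. Intervals of shares are exact (Clopper-Pearson), and cells were thinned once with a fixed seed in Python 3.11.15. Members were matched on gene symbol, and coordinates are from GENCODE M21 on GRCm38.

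The members and lists were chosen with earlier results of these data known. Values in every library are given for the 4 members of each class with the highest mean CPM and the 4 with the widest range of log2(CPM + 1), and the others by range. Replicates of 1 group were not the same library deposited again: their counts differed 69.7 to 210 times more than sampling noise, as a chi-square over its degrees of freedom. The value of 1 gene of the pathway list is not reported here.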

Additional observations from a re-analysis of the deposited data

Results flagged for a closer look

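Irf7 had a gap between RFP+ and YFP+ cells that pointed up in both same-numbered pairs at 4 days and down in both at 2 weeks, and the gap at 2 weeks minus that at 4 days was -0.65 on the log2(CPM + 1) scale. Oas1a did the same, with a difference of -0.60. Neither arrangement held under the strict gate, where Irf7 was lower in RFP+ cells of replicate 2 at 4 days (6.47 against 9.83 CPM) and Oas1a higher in those at 2 weeks (3.50 against 1.21 CPM). In edgeR's interaction test of this difference the adjusted p was 1.00 for both genes, with a log2 estimate of -0.73 ± 0.48 (SE) for Irf7 and -0.98 ± 1.36 for Oas1a. Trim30a lay below both Confetti libraries in both 2 weeks RFP+ libraries and above both in the 2 weeks YFP+ libraries, a difference of -1.54 on the log2(CPM + 1) scale. Gbp7 showed the same arrangement, with a difference of -1.17, but under the strict gate its 2 weeks RFP replicate 1 stood at 0.899 CPM, between the Confetti libraries at 0.813 and 1.03 CPM. These were not tested on that scale against Confetti, and the direct edgeR comparison of the 2 weeks groups gave adjusted p of 0.350 and 0.317. No group had the 4 libraries needed to look for a library far from the others.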

How the results depend on the processing

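With 1 Confetti library per colour and 2 libraries in each other group, the design rests on few pools, and the labels give no day or handling of a library. The count of members called was 0 in all 9 comparisons and in the interaction, and 111 of 119 alternative counts equalled it. For RFP+ against YFP+ cells over both times 1 member, Gbp7, was called with DESeq2 (703 of 13498 genes in all), with no filter on low counts (529 of 21290), with a replicate block by time point (edgeR adjusted p = 0.0498, 96 of 14022) and without 4 days RFP replicate 1 (434 of 13905), the count being 0 to 1 when each library was left out in turn. With no filter, 1 member (Oas1a) was called in 4 days RFP+ (240 of 21599 genes), 5 (Ifit3, Oas1a, Mx1, Bst2, Rtp4) in 2 weeks RFP+ (1889) and 3 (Zbp1, Oas1a, Bst2) in 2 weeks YFP+ cells (118) against Confetti, and DESeq2 called 3 in 2 weeks RFP+ cells (1795 of 14856). The replicate block with the number alone changed no count. Deviations of replicate 1 from the group mean correlated across 14856 genes at r = 0.414 and 0.590 between the colours at 4 days and 2 weeks, and at 0.0341 to 0.474 between times. The labels do not say what the numbers stand for, so the unblocked fit was kept. Of 452 alternative fold changes of 37 followed, 437 kept direction and call, 14 passed the threshold in the same direction, and 1 turned, Ifit3 at 2 weeks between the colours, to -0.52 without 2 weeks RFP replicate 2, where leaving out other libraries gave up to 2.55. The cause was not tested.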

Other observations

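Ptprc-positive cells of the same libraries, which the comparisons leave out, held more type I-like RNA for their depth. Their type I-like sum was 1109 and 968 CPM in Confetti RFP+ and YFP+ libraries, 2743 and 3255 CPM in 4 days RFP+, 3208 and 3897 CPM in YFP+ libraries at 4 days, 1790 and 1134 CPM in 2 weeks RFP+, and 1900 and 1509 CPM in 2 weeks YFP+ libraries. All 8 Red2Kras libraries lay above both Confetti libraries, and the 4 days libraries lay above the 2 weeks libraries. The IFN-gamma-like sum of these cells was 596 and 449 CPM in Confetti and 753 to 2476 CPM in the Red2Kras libraries. Ptprc-positive cells made up 0.964% to 34.8% of cells in a library, and their makeup was not examined.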
